A study of Mus musculus with 108 samples.

Results

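The 10 genes of the spindle checkpoint and of the Aurora kinase group described here were chosen by symbol from the deposited gene counts and followed through single mouse oocytes: Ttk, Bub1, Bub1b, Bub3, Mad2l1, Aurka, Aurkb, Aurkc, Tpx2 and Prc1. These 10 of 55573 gene IDs were counted in 86 single-oocyte libraries from 23 females. The study compared oocytes in which Exosc10, a catalytic subunit of the nuclear RNA exosome, had been knocked out in the oocyte alone (cKO) with control oocytes. The strain, the age of the females, the control genotype and the promoter that drives the deletion are not given in the sources used here. In 64 polyA libraries the RNA was captured by its poly(A) tail on oligo(dT) beads, and in 22 RiboMinus libraries reverse transcription was primed with random hexamers, independently of the tail.

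The polyA groups were GV (oocytes with an intact germinal vesicle, before meiosis resumes; 7 control oocytes from 2 females and 15 cKO oocytes from 2 females), GV3h (3 hours in M2 medium ex vivo; 8 control and 11 cKO oocytes, 3 females each) and MII (eggs from the oviduct, arrested at metaphase of the second division; 8 control and 15 cKO eggs, 3 females each). The RiboMinus groups were GV (8 control and 7 cKO oocytes, 2 females each) and MII (3 control eggs from 1 female and 4 cKO eggs from 2 females). Each female gave oocytes of 1 genotype, 1 stage and 1 library type, so oocytes of a female share whatever is particular to it. At RiboMinus MII the genotype and the single control female cannot be told apart. In RiboMinus controls the stage and that female cannot be told apart either.

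The spindle checkpoint holds a dividing cell in metaphase until every kinetochore is attached to microtubules. Ttk (MPS1) and Bub1 are its kinetochore kinases. Mad2l1 (MAD2), Bub1b (BUBR1) and Bub3 join Cdc20 in the mitotic checkpoint complex, which blocks the anaphase-promoting complex. Aurka acts at spindle poles with its activator Tpx2, Aurkb is the kinase of the chromosomal passenger complex that corrects wrong attachments, Aurkc is its close relative in germ cells, and Prc1 bundles antiparallel microtubules of the central spindle. A grown oocyte stops transcription before it resumes meiosis and uses stored mRNA whose poly(A) tails are lengthened or shortened during maturation. The cytoplasmic polyadenylation element, read by CPEB1 close to the polyadenylation signal, is the best-known signal for lengthening.

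Because the 2 library types differ in whether the tail is needed, the annotated 3′ ends of the 10 genes are shown first. The last 100 bases of each gene's principal transcript (GENCODE annotation of GRCm38/mm10) were searched on the transcript strand for the element TTTTAT or TTTTAAT and, within 40 bases of the end, for the signal AATAAA or ATTAAA. An element was present in 4 of 10 members, against 17.9% of 19604 genes searched in the same way. An element and a signal together were present in 3 of 10 members, against 13.8% of these genes. The 4 sites are printed 5′ to 3′, with the element and the signal in capitals. They lie at chr2:118641561-118641590 on the plus strand (Bub1b), chr2:172356229-172356258 on the minus strand (Aurka), chr11:69051624-69051653 on the plus strand (Aurkb) and chr7:7003044-7003073 on the plus strand (Aurkc), all in 3′ UTRs.
Bub1b: tgtaTTTTATAATAAAatagtttttgttac
Aurka: tattTTTTATgttggagttctgtcatgtat
Aurkb: aacaTTTTATAATAAAgtcttaaatgtttc
Aurkc: tctcTTTTATgaagtgatgttaATTAAAac
In Bub1b and Aurkb the element ran directly into the signal, and Bub1b had 2 elements in its window. In Aurkc 12 bases separated the element from the signal. Aurka had an element and no signal in the window. The windows of Ttk, Bub1, Bub3, Mad2l1, Tpx2 and Prc1 held no element. Of these 6, Mad2l1, with an annotated 3′ UTR of 6802 bases, had no signal near its end, and the other 5 had one. The annotated ends may not be those that oocytes use, so these matches describe the annotation only.

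Library totals ran from 4638718 to 8735914 counts (polyA) and from 12319658 to 62675760 (RiboMinus). Exosc10 itself followed the labels: across the 5 pairs of groups the top cKO value was 4.21% to 8.81% of the bottom control value. All 8 oocyte markers were detected in every group, with sums of 5426 to 23668 CPM (counts scaled to a common library size), while 5 to 9 of 10 granulosa and cumulus markers summed to 46.9 to 180 CPM. Among these Ptx3, Tnfaip6, Foxl2, Amh, Hsd17b1, Fshr and Inha were at 0 in at least 1 group. Of 4 blood and immune markers Hba-a1 was at 0 in every group and Cd68 led; their sums were 0 to 4.25 CPM in control oocytes and 0.57 to 26 CPM in cKO oocytes. Mitochondrial counts were 0.63% to 1.29% of polyA libraries at MII against 0.224% to 0.59% at the earlier stages, and 2.51% to 6.69% of RiboMinus libraries at MII against 1.02% to 3.97% at GV, so this share moved with stage. At RiboMinus MII the granulosa sums did not overlap between genotypes (141 to 160 CPM in the 3 control eggs, 62.6 to 94.8 CPM in the 4 cKO eggs). Nr5a2 had the most counts of these markers in both groups, and Amh, Foxl2, Hsd17b1, Ptx3 and Tnfaip6 were at 0 in the control eggs. The median mitochondrial share was 4.85% in control and 2.68% in cKO eggs. The part of these markers and shares in the results was not tested. A RiboMinus GV cKO oocyte, V1126_3, stood apart from the other 6 oocytes of its group and near the controls for several members, although its Exosc10 was at most 8.29 CPM, so calls that use RiboMinus GV cKO oocytes are given with and without it. CPM is a share of a library and spike-in counts were not analysed here, so no value here speaks to how much RNA an oocyte held.

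All 10 members were detected in every library, with 63 counts as the fewest (Aurkb in a control polyA egg). Per kilobase of annotated exon, Bub1b was the most abundant member in control polyA GV oocytes at 303 ± 45 CPM per kb (SD, n = 7). Aurka followed at 116 ± 8.77, Ttk at 78 ± 3.8, Prc1 at 68.3 ± 6.49 and Aurkc at 51.6 ± 9.05 CPM per kb. Each of these differed from its neighbour in the order by more than the larger SD. Bub1 (42.2) and Tpx2 (40.1 CPM per kb) did not, and neither did Bub3 (28.2) and Mad2l1 (27.6 CPM per kb). Aurkb came last at 7.56 ± 1.57 CPM per kb. Bub1b ranked first and Aurkb last in all 6 polyA groups, also per kilobase of the principal transcript. By that length Prc1 ranked 2nd in these control oocytes at 186 ± 17.6 CPM per kb; its annotated exons cover 8225 bases and its principal transcript 3026.

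In control polyA MII eggs Bub1b stood at 545 ± 63 CPM per kb of exon (n = 8). Aurkc had moved up to 2nd place at 158 ± 40.3, followed by Prc1 at 125 ± 18.6, Aurka at 115 ± 20.6 and Mad2l1 at 114 ± 23.5 CPM per kb, and neighbours among these 4 differed by less than the larger SD. In control RiboMinus MII eggs the order was another: Ttk was first at 155 ± 6.85 CPM per kb (n = 3), Bub1b in the third place at 92.7 ± 16.9, and Aurkc (14.3 ± 4.56) and Mad2l1 (12.6 ± 1.67) were the lowest. In the 4 cKO RiboMinus eggs Aurka ranked first at 159 ± 19.1 CPM per kb, ahead of Bub1b at 145 ± 31 by less than the larger SD.

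**Figure D1:**
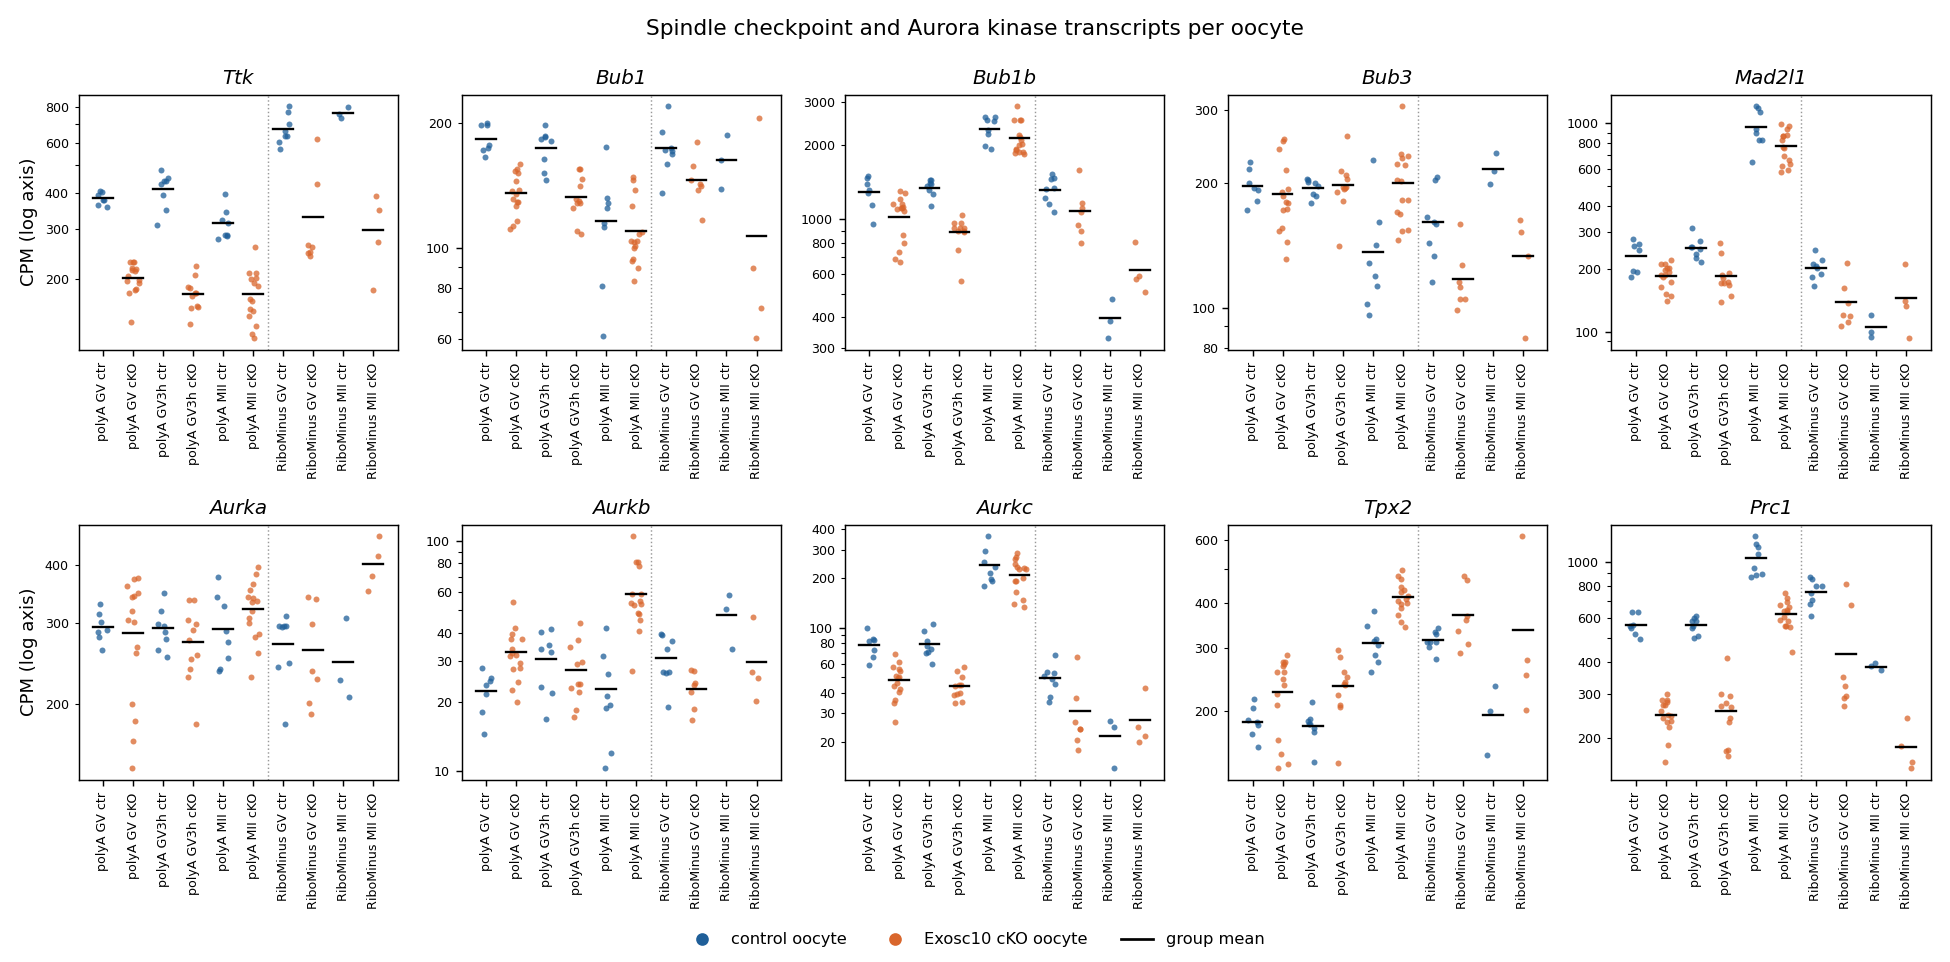
Level of each of the 10 members in each of 86 oocytes, in CPM on a log axis, by group (library type, stage and genotype along the x axis); points are oocytes (blue control, orange cKO) and horizontal bars are group means. Ttk and Prc1 are lower in cKO than in control oocytes at each stage, and Mad2l1 and Aurkc are highest in the polyA MII groups.

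The first comparison asked what the loss of Exosc10 changed at each stage. Ttk and Prc1 were lower in cKO oocytes in all 5 genotype contrasts, by 0.87 to 1.29 (Ttk) and 0.78 to 1.21 (Prc1) on the log2 scale. Aurkc, Mad2l1, Bub1 and Bub1b were also lower in cKO polyA GV and GV3h oocytes. Tpx2 was higher in cKO GV3h oocytes and polyA MII eggs, and Aurkb rose most, 2.52-fold, in cKO polyA MII eggs. Aurka passed the test in 1 contrast, RiboMinus MII. A gene was called at a Benjamini-Hochberg adjusted p under 0.05 in edgeR's quasi-likelihood test over all genes, with the oocyte as the replicate.

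In polyA GV oocytes 1 member rose and 6 fell, where 22.0% of all genes tested rose and 18.5% fell. Scaled by library totals instead of TMM factors, 2 rose and 4 fell, with 4380 of 14606 genes higher and 1853 lower. With TMM factors the median member differed by -0.35 and the median gene by 0.06 (log2). With counts summed per female (2 against 2) edgeR called 0 of 10 members, 4 of them with an unadjusted p under 0.05, and 0.00555% of all genes. In GV3h oocytes 1 member rose and 6 fell (all genes: 29.4% and 26.1%), and the female sums called the same 6 falls (39.7% of all genes). In polyA MII eggs 3 rose and 3 fell (19.0% and 18.6%), and the female sums called Aurkb higher and Ttk and Prc1 lower (18.3% of all genes). In RiboMinus GV oocytes 0 rose and 6 fell (21.2% and 16.5%). By library totals 1 rose and 5 fell there (3931 and 1995 of 15347 genes). The female sums called 0, 4 of them with an unadjusted p under 0.05 (0.0149% of all genes). In RiboMinus MII eggs 2 rose and 2 fell (13.9% and 9.78%), and no female sums were fitted because the controls came from 1 female. The random female block in voom also gave 2 higher and 2 lower there (2847 of 16675 genes called).

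Ttk, the kinase at the top of the checkpoint, showed the clearest fall together with Prc1. Control polyA GV oocytes held 359, 380 and 408 CPM of Ttk (lowest, median, highest; n = 7) and cKO oocytes 142, 206 and 230 CPM (n = 15). No cKO oocyte reached a control oocyte. The log2 difference was -0.94 ± 0.07 (SE; edgeR adjusted p = 5.37e-09), and adjusted p = 0.144 by female sums. At GV3h the control median was 435 CPM (311 to 481) and the cKO median 179 CPM (140 to 222), again without overlap (-1.23 ± 0.09, edgeR adjusted p = 3.31e-09, female sums 0.000191). At polyA MII the medians were 301 CPM (277 to 398) and 171 CPM (125 to 260), a difference of -0.87 ± 0.11 (edgeR adjusted p = 4.48e-07, female sums 0.0025). At each of the 3 polyA stages every cKO oocyte was below every control oocyte of that stage.

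RiboMinus libraries gave Ttk falls of similar size. At GV the control range was 572 to 805 CPM with a median of 648, and the cKO range 242 to 616 with a median of 259 CPM (-1.04 ± 0.19, edgeR adjusted p = 0.00129, female sums 0.124). Of the 7 cKO oocytes, V1126_3 (616 CPM) lay inside the control range. Leaving it out gave -1.27 (edgeR adjusted p = 1.01e-05), leaving out its whole female V1126 gave -1.43, and leaving out the other cKO female V1131 gave -0.64 (adjusted p = 0.152). At MII the 3 control eggs held 730, 755 and 797 CPM and the 4 cKO eggs 184, 271, 350 and 390 CPM (-1.29 ± 0.24, edgeR adjusted p = 0.00287).

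Bub1, the other kinetochore kinase, fell less. Control polyA GV oocytes held 166, 177 and 200 CPM and cKO oocytes 111, 135 and 159 CPM, without overlap (-0.47 ± 0.08, edgeR adjusted p = 4.17e-05, female sums 0.225). At GV3h the difference was -0.41 ± 0.09 (edgeR adjusted p = 0.000363, female sums 0.0157). At polyA MII both genotypes were near 110 CPM (116 ± 34.2 in controls, 110 ± 20.3 in cKO; SD) and the difference of -0.13 did not pass (adjusted p = 0.506). In RiboMinus GV it was called without V1126 (-0.34, adjusted p = 0.0239) or V1126_2 (-0.32), and not without V1126_3 (-0.26). With all oocytes it did not pass in RiboMinus GV (-0.26, adjusted p = 0.0671) or MII (-0.56, adjusted p = 0.286) either. The 4 RiboMinus cKO eggs spread from 60.5 to 206 CPM, and Bub1 was called there without female V1167 (-1.22, edgeR adjusted p = 0.00786) or its egg V1167_2 (-1.07).

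Bub1b, Mad2l1 and Bub3 are the members that belong to the mitotic checkpoint complex. Bub1b at polyA GV3h was at 1134, 1379 and 1445 CPM in control oocytes and 562, 918 and 1043 CPM in cKO oocytes, without overlap (-0.62 ± 0.09, edgeR adjusted p = 5.59e-06, female sums 0.000927). At polyA GV its difference was smaller and the groups overlapped (955 to 1499 against 672 to 1304 CPM; -0.36 ± 0.13, edgeR adjusted p = 0.0317, female sums 0.35). The 2 cKO females there differed, with means of 754 (V857) and 1161 CPM (V888), and the call was lost without V857 (-0.17, adjusted p = 0.0951), V856 (adjusted p = 0.155) or V889 (adjusted p = 0.0877). At polyA MII the difference was -0.17 (adjusted p = 0.122).

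In RiboMinus MII eggs Bub1b went the other way: control eggs held 330, 385 and 474 CPM and cKO eggs 506, 574, 588 and 812 CPM (0.70 ± 0.23, edgeR adjusted p = 0.0384). Every cKO egg was above every control egg. The call was lost without female V1167 (0.55, adjusted p = 0.0987), without its egg V1167_2 (adjusted p = 0.0925) or without any single control egg (adjusted p 0.062 to 0.166). At RiboMinus GV the difference was -0.29 (adjusted p = 0.0882), and it passed without V1126 (-0.51) or V1126_3 (adjusted p = 0.0047).

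Mad2l1 fell modestly in 4 of 5 genotype contrasts, with overlapping groups. At polyA GV the control range was 184 to 279 CPM and the cKO range 140 to 222 CPM (-0.35 ± 0.10, edgeR adjusted p = 0.00798, female sums 0.401). Without control female V889 the difference was -0.10 (adjusted p = 0.638). At GV3h it was -0.47 ± 0.11 (edgeR adjusted p = 0.00107, female sums 0.0364; without V995 adjusted p = 0.053). At polyA MII it was -0.35 ± 0.11 (edgeR adjusted p = 0.0145, female sums 0.228), and the call was lost without V897 (-0.15, adjusted p = 0.588) or V853 (-0.25, adjusted p = 0.219). At RiboMinus GV it was -0.56 ± 0.14 (edgeR adjusted p = 0.00715), and -0.70 without V1126_3 (adjusted p = 0.000137). It was -0.24 without V1131 (adjusted p = 0.458), and the call was also lost without V1132 or V1133. In RiboMinus MII eggs the value was 0.52 and did not pass (adjusted p = 0.184).

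Bub3, which carries Bub1 and Bub1b to kinetochores, did not differ detectably in polyA GV (-0.09, adjusted p = 0.552; -0.32 without V888, which passed) or GV3h oocytes (0.01). At polyA MII control eggs held 95.9, 123 and 228 CPM and cKO eggs 146, 202 and 307 CPM (0.51 ± 0.14, edgeR adjusted p = 0.00626, female sums 0.112; 0.36 without V853, adjusted p = 0.158). At RiboMinus GV Bub3 was lower in cKO (-0.46 ± 0.14, edgeR adjusted p = 0.0148; -0.56 without V1126_3). That call was lost without V1131 (-0.26), V1132 or V1133. The RiboMinus MII value was -0.64 (adjusted p = 0.0657), and -0.91 without V1167, which passed (adjusted p = 0.0329). Bub3 shares its locus with the annotated gene Fgfr2, and the strand setting of the counting is not given in the sources used here, so reads could be exchanged between overlapping genes.

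**Figure D2:**
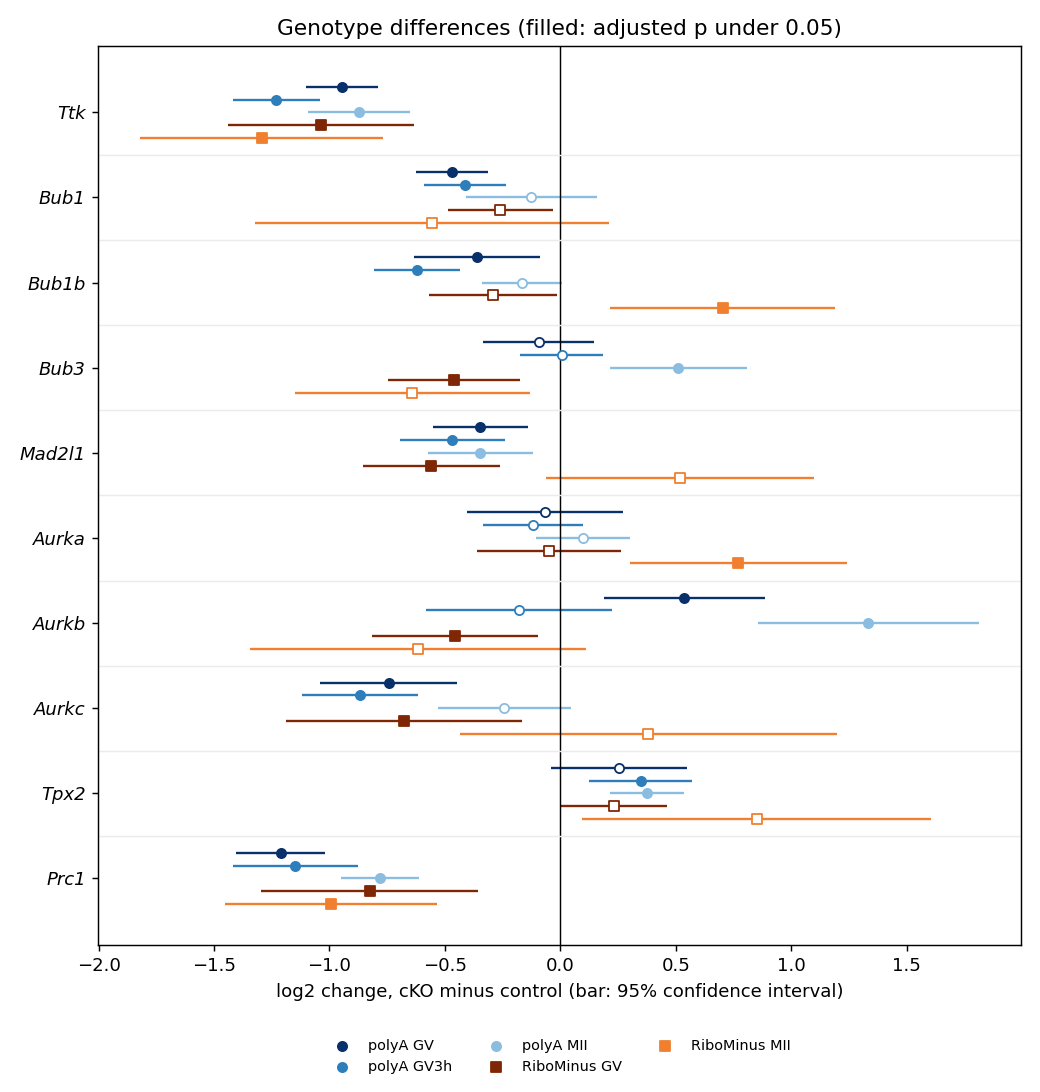
Log2 difference of cKO from control oocytes for each member in the 5 genotype contrasts; points are edgeR estimates, bars are 95% confidence intervals and filled points passed the test at an adjusted p under 0.05. Ttk and Prc1 are below 0 and filled in all 5 contrasts, and Aurkb is above 0 at polyA MII (1.33) with a negative estimate at RiboMinus MII (-0.61, not called).

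Of the Aurora kinases, Aurka was the steadiest. Control polyA GV oocytes held 262 to 329 CPM and cKO oocytes 145 to 375 CPM, with a difference of -0.07 (adjusted p = 0.779), and GV3h, MII and RiboMinus GV gave -0.12, 0.10 and -0.05, none of which passed (RiboMinus GV without V1126_3: -0.09). The wide cKO GV range followed the female: V857 oocytes averaged 191 CPM and V888 oocytes 333 CPM. Without V888 Aurka was called lower in cKO (-0.65, edgeR adjusted p = 0.000287). In RiboMinus MII eggs it was higher in cKO, at 352, 380, 420 and 463 CPM against 207, 225 and 307 CPM (0.77 ± 0.22, edgeR adjusted p = 0.0221). The groups did not overlap, yet without control egg V1145_2 or V1145_4 the call was lost (adjusted p = 0.103 and 0.118).

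Aurkb, the rarest member, had its largest genotype difference in polyA MII eggs. Control eggs held 10.3, 20.2 and 41.9 CPM and cKO eggs 27.2, 54 and 105 CPM (1.33 ± 0.23, edgeR adjusted p = 5.48e-05, female sums 0.00608). The groups overlapped at their edges. In polyA GV oocytes it was also higher in cKO (0.54 ± 0.17, edgeR adjusted p = 0.0136, female sums 0.421), a call lost without V888 (0.33), V856 or V889. In RiboMinus libraries its estimates were negative: -0.46 ± 0.17 at GV (edgeR adjusted p = 0.044; -0.51 without V1126_3, adjusted p = 0.0246), lost without any 1 of the 4 females, and -0.61 at MII (adjusted p = 0.21), which passed without V1166 (-1.02, adjusted p = 0.0432). Whether the genotype difference itself differed between library types was not tested.

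Aurkc fell in cKO GV and GV3h oocytes. At GV3h the control range was 59.6 to 105 CPM and the cKO range 34.7 to 57.6 CPM, without overlap (-0.87 ± 0.12, edgeR adjusted p = 3.78e-06, female sums 0.00145). At polyA GV the ranges were 59 to 100 and 26.6 to 69 CPM (-0.74 ± 0.14, edgeR adjusted p = 0.00026, female sums 0.194; -0.52 without V889, adjusted p = 0.0855). At RiboMinus GV Aurkc was lower by -0.68 ± 0.24 (edgeR adjusted p = 0.0372). Oocyte V1126_3 held 65.6 CPM there and the other 6 cKO oocytes 17.7 to 37.1 CPM. Without it the difference was -0.99 (adjusted p = 0.000327), while without V1131 it was -0.21 (adjusted p = 0.731), and the call was also lost without V1132 or V1133. At polyA MII (-0.24, adjusted p = 0.181) and RiboMinus MII (0.38, adjusted p = 0.513) it did not pass.

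Because both passenger-complex kinases are read in the same oocyte, their ratio does not depend on library scaling. In control polyA GV oocytes the CPM of Aurkc exceeded that of Aurkb by a median of 3.36-fold (2.79 to 4.61), and in cKO oocytes by 1.45-fold (0.851 to 2.7), without overlap. At GV3h the medians were 2.71 (1.99 to 3.54) and 1.64 (0.87 to 3.18), and in polyA MII eggs 12.3 in controls (5.58 to 20.9) and 3.67 in cKO (2.34 to 6.06), with overlap at both stages. In RiboMinus libraries the medians were 1.58 and 1.41 at GV, and at MII the control median, 0.422 (0.271 to 0.794), was below the cKO median, 1.02 (0.425 to 1.58), again with overlap. These ratios compare the 2 genes within 1 library and take no account of their different lengths.

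Tpx2, which activates Aurka on spindle microtubules, had positive estimates in all 5 genotype contrasts. At polyA MII the control range was 258 to 381 CPM and the cKO range 343 to 496 CPM (0.38 ± 0.08, edgeR adjusted p = 0.000375, female sums 0.0763; without V897 adjusted p = 0.0531). At GV3h the difference was 0.35 ± 0.11 (edgeR adjusted p = 0.0088, female sums 0.111; 0.27 without V995, adjusted p = 0.135). At polyA GV it was 0.25 (adjusted p = 0.161), with means of 162 CPM in V857 and 260 CPM in V888 oocytes, and it passed without V857 (0.46, adjusted p = 4.87e-05). At RiboMinus GV it was 0.23 (adjusted p = 0.101; 0.28 without V1126_2, adjusted p = 0.0431, and 0.23 without V1126_3, adjusted p = 0.0988). The RiboMinus MII value of 0.85 (adjusted p = 0.0963) rested on 4 cKO eggs at 202, 253, 278 and 616 CPM, and was 1.28 without V1167 (adjusted p = 0.023).

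Prc1 fell in every genotype contrast. Control polyA GV oocytes held 492, 555 and 634 CPM and cKO oocytes 161, 247 and 300 CPM (-1.21 ± 0.09, edgeR adjusted p = 3.69e-09, female sums 0.142). Every cKO oocyte was below every control oocyte, and the same was seen at GV3h (497 to 610 against 170 to 415 CPM; -1.15 ± 0.13, edgeR adjusted p = 3.76e-07, female sums 0.00034) and polyA MII (870 to 1261 against 438 to 750 CPM; -0.78 ± 0.08, edgeR adjusted p = 3.42e-08, female sums 0.00271). At RiboMinus GV the control range was 609 to 871 CPM and the cKO range 269 to 816 CPM (-0.83 ± 0.22, edgeR adjusted p = 0.00994). The oocytes V1126_2 and V1126_3 were inside the control range. The difference was -1.07 without V1126_3, -1.40 without V1126, and -0.30 without V1131 (adjusted p = 0.477), and the call was also lost without V1132 or V1133. At RiboMinus MII control eggs held 371, 386 and 395 CPM and cKO eggs 152, 160, 186 and 240 CPM (-0.99 ± 0.21, edgeR adjusted p = 0.00576). The annotated Prc1 locus overlaps Rccd1 and 6330403N20Rik.

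**Figure D3:**
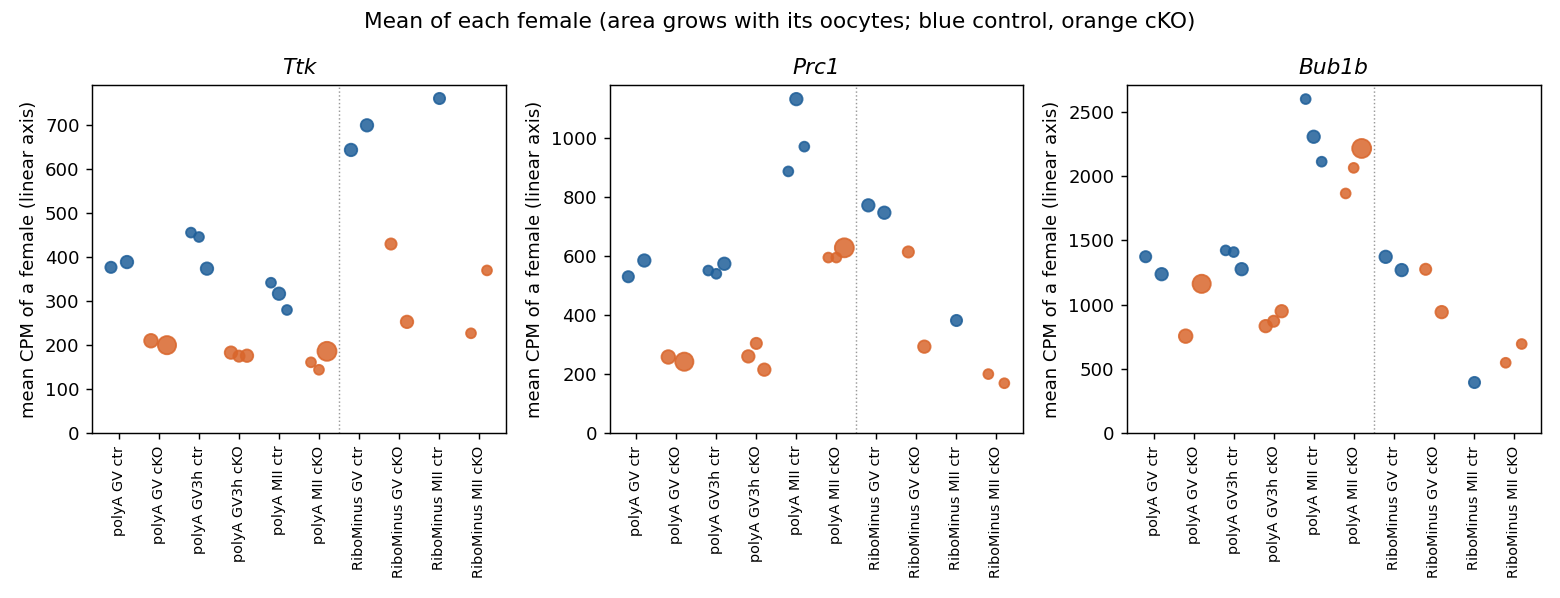
Mean CPM of Ttk, Prc1 and Bub1b in each female, on linear axes, by group (library type, stage and genotype); each point is 1 female, its area grows with the number of its oocytes, and blue is control and orange cKO. In RiboMinus GV cKO oocytes the female V1126 lies above V1131 for Ttk (430 against 253 CPM) and Prc1 (614 against 293 CPM), and at polyA GV V888 lies above V857 for Bub1b (1161 against 754 CPM).

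Culture for 3 hours left the 10 members within the resolution of the test. In control oocytes edgeR called 0 members between GV and GV3h, where 0.354% of all genes rose and 0.165% fell. DESeq2 also called 0, and 1 member, Aurkb (0.46 ± 0.19, adjusted p = 0.364), had an unadjusted p under 0.05. The female sums called 0 members, 0 of them with an unadjusted p under 0.05 (0.0124% of all genes). In cKO oocytes edgeR and DESeq2 called 0 members (0.371% of all genes rose and 0.231% fell), and 1, Ttk (-0.19 ± 0.08, adjusted p = 0.302), had an unadjusted p under 0.05. The female sums called 0, 0 of them with an unadjusted p under 0.05 (0.0% of all genes). Bub1b was called without V857 (-0.41, adjusted p = 0.00501). Aurka was called at -0.31 without V857 (adjusted p = 0.0467) and at 0.54 without V888 (adjusted p = 0.0438), and Tpx2 at 0.56 without V888 (adjusted p = 0.0334). No member's culture change differed between genotypes in edgeR or DESeq2 (0.0959% of all genes did). Ttk and Aurkb, at -0.28 and -0.71, had an unadjusted p under 0.05, and by female sums no member did (0.0% of all genes called). Without V857 Bub1b was called at -0.44 and without V888 Tpx2 at 0.61.

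From GV to MII the polyA and RiboMinus libraries gave different pictures. In polyA libraries of control oocytes Mad2l1 rose 4.09-fold and Aurkc 3.04-fold, Prc1, Bub1b and Tpx2 rose by 0.72 to 0.86 (log2), and Ttk, Bub1 and Bub3 fell. In RiboMinus libraries of control oocytes Bub1b, Mad2l1, Aurkc, Tpx2 and Prc1, the same 5, fell. The 3 control RiboMinus MII eggs came from 1 female, so stage and female cannot be told apart there, and no female sums were fitted. In polyA control libraries 5 members rose and 3 fell, where 30.1% of all genes rose and 33.3% fell. The female sums called 6, of which 5 rose (43.1% of all genes). In polyA cKO libraries 6 rose and 2 fell (33.1% and 41.7%), and 6 rose and 4 fell by library totals (2812 and 7251 of 13217 genes). By female sums 6 rose and 0 fell (37.7% of all genes called). Library totals moved the median gene (log2): it was -0.08 by TMM and -0.46 by totals in controls, and -0.17 and -0.62 in cKO oocytes. In RiboMinus control libraries 2 rose and 5 fell (15.0% and 15.8%), and by library totals 0 rose and 5 fell (2129 and 2910 of 16340 genes). In RiboMinus cKO libraries 1 rose and 2 fell (7.4% and 8.67%), and the female sums called 0 members, 2 of them with an unadjusted p under 0.05 (0.0% of all genes).

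Among the checkpoint complex genes Mad2l1 had the largest change in polyA libraries and Bub1b in RiboMinus libraries. Control polyA GV oocytes held 184, 247 and 279 CPM and MII eggs 652, 919 and 1204 CPM, far from overlapping (2.03 ± 0.14, edgeR adjusted p = 3.59e-10, female sums 0.000139). The cKO rise was 2.05 ± 0.09 (4.14-fold, edgeR adjusted p = 4.66e-20). In RiboMinus libraries control GV oocytes held 165, 205 and 246 CPM and the 3 MII eggs 94.9, 99.9 and 121 CPM (-0.95 ± 0.14, edgeR adjusted p = 3.06e-05). The cKO RiboMinus change was 0.07 and did not pass.

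Bub1b rose in polyA control libraries from 955, 1319 and 1499 CPM to 1920, 2401 and 2605 CPM (0.84 ± 0.10, edgeR adjusted p = 6.17e-07, female sums 0.00131) and in cKO by 1.05 ± 0.10 (edgeR adjusted p = 1.73e-11). In RiboMinus control libraries it fell to 30.1% of its GV level, from 1071, 1329 and 1523 CPM to 330, 385 and 474 CPM (-1.73 ± 0.14, edgeR adjusted p = 3.57e-08). In RiboMinus cKO libraries it fell by 0.80 ± 0.20 (edgeR adjusted p = 0.0184; -0.65 without V1126_3, adjusted p = 0.0178), a call lost without V1131 (adjusted p = 0.0612) or V1166 (adjusted p = 0.143), or when egg V1166_1, V1166_2 or V1167_1 was left out. In polyA cKO libraries Bub3 was at 0.07, which did not pass (0.42 without V888, adjusted p = 0.0123). Bub3 fell in polyA control libraries (-0.55 ± 0.16, edgeR adjusted p = 0.00492, female sums 0.177), a call lost without V853 or V889, and in RiboMinus control libraries it rose (0.42 ± 0.15, edgeR adjusted p = 0.0426), a call lost under each omission of 1 female or of 1 MII egg.

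The 2 kinetochore kinases did not follow Bub1b. Bub1 fell in polyA libraries of both genotypes (-0.67 ± 0.16 in controls, edgeR adjusted p = 0.00099, female sums 0.0303; -0.32 ± 0.08 in cKO, edgeR adjusted p = 0.000675, female sums 0.199) and differed by -0.09 in RiboMinus controls (adjusted p = 0.653). In RiboMinus cKO libraries the Bub1 value of -0.45 did not pass (adjusted p = 0.297), and it was called lower without female V1167 (-1.14, adjusted p = 0.00921) or its egg V1167_2 (-0.98). Ttk fell by 0.30 ± 0.09 in polyA controls (edgeR adjusted p = 0.00596, female sums 0.237), a call lost without V889, and by 0.21 ± 0.09 in polyA cKO oocytes (edgeR adjusted p = 0.0317, female sums 0.321), lost without V841, V842, V857 or V888. In RiboMinus libraries the Ttk values were 0.18 (controls, adjusted p = 0.283) and -0.14 (cKO), and neither passed. The within-oocyte ratio of Bub1b to Bub1 CPM had a median of 7.02 in control polyA GV oocytes and 20.9 in control polyA MII eggs. In the control RiboMinus groups it was 7.76 and 2.53. In cKO oocytes the GV and MII medians were 8.36 and 19.5 in polyA libraries, and 6.83 and 6.76 in RiboMinus libraries.

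Aurkc rose with Mad2l1 in polyA libraries: control oocytes went from 59, 82.4 and 100 CPM to 179, 225 and 362 CPM (1.60 ± 0.16, edgeR adjusted p = 4.34e-08, female sums 0.000364) and cKO oocytes rose 4.36-fold (2.13 ± 0.13, edgeR adjusted p = 2.08e-16). In RiboMinus controls Aurkc fell from 35, 49.5 and 68.1 CPM to 13.8, 24.5 and 26.8 CPM (-1.17 ± 0.23, edgeR adjusted p = 0.000594). Neither pair of groups overlapped. The RiboMinus cKO change of Aurkc, -0.17, did not pass (edgeR adjusted p = 0.785).

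Aurkb did not move detectably in polyA controls (0.01, adjusted p = 0.968) and rose in polyA cKO oocytes (0.83 ± 0.15, edgeR adjusted p = 1.03e-05). In RiboMinus controls it rose by 0.61 ± 0.21 (edgeR adjusted p = 0.0347), a call lost without V1132, V1133, V1145_3 or V1145_4. Aurka was at -0.03 in polyA controls and 0.15 in polyA cKO oocytes, neither of which passed, and without V888 the cKO change was 0.85 (adjusted p = 2.78e-06). In RiboMinus cKO oocytes it rose by 0.63 ± 0.19 (edgeR adjusted p = 0.0373; 0.70 without V1126_3, adjusted p = 0.0221), a call lost without V1131, V1166 or V1167, or when GV oocyte V1126_2 or egg V1166_1, V1167_1 or V1167_2 was left out.

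Tpx2 rose in polyA controls from 159, 187 and 216 CPM to 258, 311 and 381 CPM (0.72 ± 0.09, edgeR adjusted p = 1.76e-06, female sums 0.00312) and in polyA cKO oocytes by 0.85 ± 0.10 (edgeR adjusted p = 2.45e-09). In RiboMinus controls it fell from a range of 280 to 342 CPM to 151, 200 and 235 CPM (-0.69 ± 0.13, edgeR adjusted p = 0.000378), and in RiboMinus cKO oocytes the value of -0.13 did not pass (adjusted p = 0.787). Prc1 rose from 492, 555 and 634 CPM to 870, 1008 and 1261 CPM in polyA controls (0.86 ± 0.09, edgeR adjusted p = 1.41e-07, female sums 0.00173) and by 1.31 ± 0.08 in polyA cKO oocytes (edgeR adjusted p = 4.24e-16). In RiboMinus controls it fell from a range of 609 to 871 CPM to 371, 386 and 395 CPM (-0.98 ± 0.12, edgeR adjusted p = 6.09e-06), and in RiboMinus cKO oocytes by 1.21 ± 0.34 (edgeR adjusted p = 0.0262; -0.94 without V1126_3, adjusted p = 0.0246). That last call was lost without V1166 or V1167, or when egg V1166_1, V1167_1 or V1167_2 was left out.

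**Figure D4:**
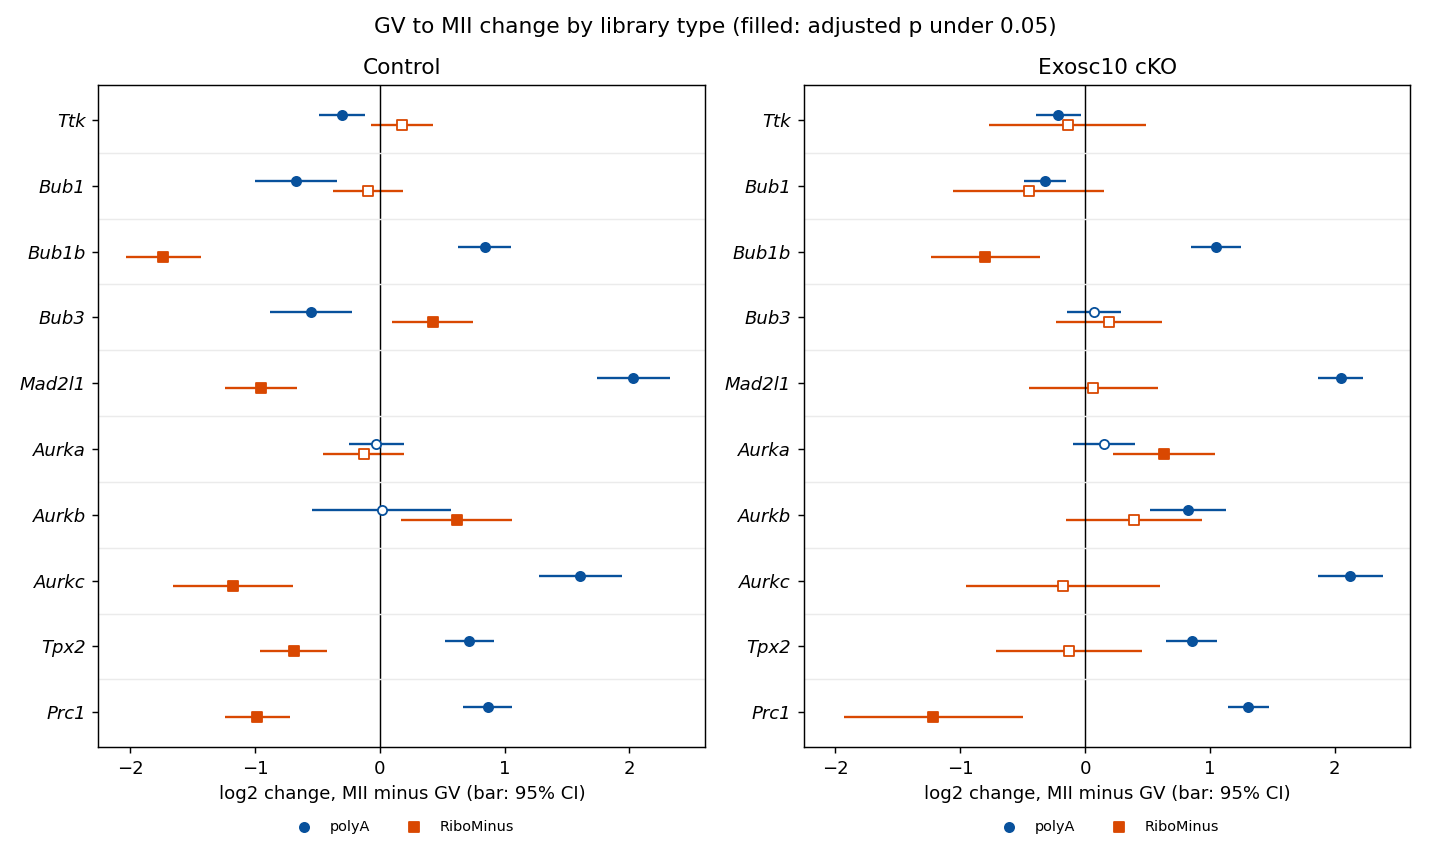
Log2 change from GV to MII of each member in polyA and RiboMinus libraries, for control and cKO oocytes; circles are edgeR estimates from polyA and squares from RiboMinus libraries, bars are 95% confidence intervals and filled symbols passed the test. In controls Bub1b, Mad2l1, Aurkc, Tpx2 and Prc1 lie above 0 in polyA libraries (0.84, 2.03, 1.60, 0.72 and 0.86) and below 0 in RiboMinus libraries (-1.73, -0.95, -1.17, -0.69 and -0.98).

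The contrast between the library types was tested as the polyA stage change minus the RiboMinus stage change in 1 edgeR fit. In controls it passed for 8 members, where 49.7% of all genes passed. The control RiboMinus MII eggs came from 1 female, so no female sums were fitted in controls. Mad2l1 had the largest value at 3.02 (adjusted p = 4.31e-13), followed by Aurkc at 2.81 (9.04e-10), Bub1b at 2.61 (1.23e-13), Prc1 at 1.88 (8.12e-12) and Tpx2 at 1.44 (4.67e-09). Bub3 (-0.94), Bub1 (-0.54) and Ttk (-0.44) had negative values. The Ttk call was lost without V889, and that of Bub1 without V836, V856, V889, V1132, V1133, V1145_2 or V1145_4. With TMM factors taken over all 4 groups together 5 passed upward and 1 downward. In cKO oocytes the 5 positive values passed again and 0 negative ones did (44.8% of all genes; library totals 5 and 2): Prc1 at 2.54, Aurkc at 2.32, Mad2l1 at 2.0, Bub1b at 1.87 and Tpx2 at 1.01. They passed in the female sums too (12.3% of all genes). Leaving out V1126_3 gave Prc1 2.31, Aurkc 2.02, Mad2l1 1.87, Bub1b 1.75 and Tpx2 1.01, all still called. Without V1167 Tpx2 was 0.59 (adjusted p = 0.0857) and Bub1 was called (0.83), as it was without V1167_2 (0.68), and without V857 Aurka was called (-0.69).

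The levels themselves show the same contrast. The mean polyA level of Mad2l1 was 1.14 times its RiboMinus level in control GV oocytes and 9.09 times in control MII eggs. For Aurkc these ratios were 1.6 and 11.1, for Bub1b 0.981 and 5.88, for Prc1 0.74 and 2.68 and for Tpx2 0.594 and 1.59. Ttk went from 0.571 to 0.413 and Aurka stayed near 1 (1.09 and 1.18). Of the 4 members with an element in the printed 3′ windows, Bub1b and Aurkc are among the 5 with a positive library difference that passed in both genotypes, and Aurka and Aurkb are not. Mad2l1, Tpx2 and Prc1 are among the 5 and had no element in the window. The 2 library types came from different females and kits, and tail length was not measured.

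Whether the genotypes differed in their GV to MII change was tested directly. In polyA libraries 3 members passed, each with a positive difference of cKO minus control (14.7% of all genes). Aurkb differed by 0.84 ± 0.29 (edgeR adjusted p = 0.0401) and Prc1 by 0.47 ± 0.13 (0.0102). Bub3 differed by 0.65 ± 0.19 (0.0162), with a fall of 0.55 in controls and 0.07, which did not pass, in cKO oocytes. DESeq2 called 1 of them, Prc1. The female sums called 0 members, 3 of them with an unadjusted p under 0.05 (0.0722% of all genes), and voom with the random female block called 0 (4 with an unadjusted p under 0.05). Without control female V889 edgeR called 0. Aurkb was also lost without V836, V842, V856, V857 or V897, Bub3 without V853 or V857, and Prc1 without V897. Without cKO female V888 edgeR called 7, adding Bub1b (0.70), Aurka (0.81), Aurkc (0.83) and Tpx2 (0.68), and without V836 it called Aurkc (0.60). In RiboMinus libraries Mad2l1 (1.01 ± 0.28, edgeR adjusted p = 0.0195) and Bub1b (0.93 ± 0.25, adjusted p = 0.0141) passed (14.8% of all genes). With the random female block neither passed (Mad2l1 adjusted p = 0.138, Bub1b adjusted p = 0.0549), and voom called 0 of the 10 (3 with an unadjusted p under 0.05). Without V1126_3 these were 1.16 and 1.06, and Aurkc (1.31) and Aurka (0.80) were called too. Without V1131 or V1132 edgeR called 0 of the 10. Bub1b was also lost without V1167 or egg V1145_4, and Mad2l1 without V1133, V1145_2 or V1145_3. Without V1126 Aurkc (1.46) and Aurka (0.87) were called, without V1167 Bub1 (-1.06) and Tpx2 (0.94), and without V1167_2 Bub1 (-0.90). Aurka was also called without V1166_2 or V1145_3.

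The 3 lists of partner genes read in the same fits held 17 kinetochore and checkpoint partners, 7 genes of the passenger complex and centromere, and 13 of spindle assembly and the central spindle. Of the checkpoint partners 4 rose and 3 fell in cKO polyA GV oocytes, 7 and 5 at GV3h, 5 and 2 at polyA MII, 4 and 2 at RiboMinus GV and 3 and 2 at RiboMinus MII. The shares of all genes that rose and fell, against which these and the next 2 lists are read, were 22.0% and 18.5%, 29.4% and 26.1%, 19.0% and 18.6%, 21.2% and 16.5%, and 13.9% and 9.78% in the same order. By library totals the checkpoint partners split otherwise: 6 were higher and 1 lower, 10 and 3, 7 and 2, 5 and 1, and 3 and 0, again in that order. All genes shifted too. By library totals 4380 were higher and 1853 lower of 14606, 5189 and 2524 of 13622, 2943 and 1808 of 12564, 3931 and 1995 of 15347, and 2553 and 1415 of 16675. These counts also stand beside the library-total counts of the next list. With the random female block voom called 1 of the 17 in place of 7 at polyA GV and 3 in place of 6 at RiboMinus GV. Over all genes the block called 1379 of 14606 and 2725 of 15347 there, which also stand beside the block counts of the next 2 lists. Female sums in edgeR called 0 of the 17 at polyA GV and 0 at RiboMinus GV (1 and 2 with an unadjusted p under 0.05), 7 at GV3h and 5 at polyA MII. Mad2l1bp (p31comet), which removes Mad2l1 from the checkpoint complex, was higher in cKO in all 5 contrasts, by 1.55, 1.70, 1.07, 0.96 and 3.11 in that order (SE 0.141 to 0.512; edgeR adjusted p 1.12e-06 to 0.00842), and by female sums at GV3h and polyA MII. Trip13, the ATPase that works with it, was higher in cKO by 0.77 (polyA GV), 0.84 (GV3h) and 0.68 (RiboMinus GV), none of which passed by female sums (adjusted p = 0.346, 0.0545 and 0.38). Cdc20, the target of the checkpoint complex, rose from GV to MII in polyA libraries by 1.99 ± 0.155 in controls and 2.23 ± 0.134 in cKO. In RiboMinus MII eggs Cdc20 was 2.33 ± 0.443 higher in cKO (edgeR adjusted p = 0.00306). Spc24, a subunit of the outer kinetochore, fell by 2.44 and 1.99.

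Of the passenger complex and centromere list 0 rose and 4 fell at polyA GV, GV3h and RiboMinus GV, 2 rose and 3 fell at polyA MII, and 0 rose and 3 fell at RiboMinus MII. By library totals 1 was higher and 3 lower, 2 and 3, 3 and 2, 0 and 1, and 1 and 3 in the order polyA GV, GV3h, MII, RiboMinus GV, MII. With the random female block voom called 0 of the 7 at polyA GV (3 with an unadjusted p under 0.05) and 1 at RiboMinus GV. Female sums in edgeR called 0 of the 7 at polyA GV and 0 at RiboMinus GV (1 and 3 with an unadjusted p under 0.05), 4 at GV3h and 3 at polyA MII. The cohesin protector Sgo2a was lower in cKO by 0.78, 0.99, 0.87, 0.50 and 0.93 in the 5 contrasts (written as polyA GV, GV3h, MII, RiboMinus GV, MII), each called, and by female sums at GV3h and polyA MII. Haspin, the kinase that places the passenger complex at centromeres, was 1.07 ± 0.10 lower at GV3h and 0.67 ± 0.17 lower at RiboMinus GV (female sums 0.000215 and 0.135). Birc5 (survivin) was 1.29 ± 0.16 higher in cKO polyA MII eggs, where Aurkb was higher, and Cdca8 (borealin) was 0.74 ± 0.09 lower, with edgeR adjusted p of 3.41e-07 and 3.58e-07. In RiboMinus MII eggs Birc5 was 0.94 lower (edgeR adjusted p = 0.00349). In control polyA libraries Birc5 fell by 2.22 and Cdca8 rose by 1.34 from GV to MII.

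Of the spindle list 2 rose and 6 fell in cKO polyA GV oocytes, 3 and 7 in GV3h oocytes, 2 and 4 at polyA MII, 2 and 6 at RiboMinus GV and 2 and 3 at RiboMinus MII. The block left 4 of the 13 called at polyA GV (0 higher and 4 lower) and 5 at RiboMinus GV. Female sums in edgeR called 0 of the 13 at polyA GV and 0 at RiboMinus GV (5 and 4 with an unadjusted p under 0.05), 8 at GV3h and 2 at polyA MII. Racgap1, a centralspindlin subunit that acts beside Prc1, was lower in cKO by 0.97 ± 0.12, 1.07 ± 0.12, 0.80 ± 0.10 and 0.99 ± 0.17 in the first 4 contrasts, each called, but by female sums only at GV3h and polyA MII (adjusted p = 0.144 at polyA GV and 0.124 at RiboMinus GV). Tacc3, a spindle protein and Aurka substrate, was lower by 0.74, 0.84 and 0.46 in the 3 polyA contrasts (female sums 0.147, 0.000342 and 0.0263). Kif23, the other centralspindlin subunit, was lower by 0.88 at GV3h and 0.65 at RiboMinus GV (female sums 0.00225 and 0.233). Hmmr was 0.86 higher in cKO at polyA MII (edgeR adjusted p = 0.048, female sums 0.197) and 1.96 lower at RiboMinus MII (edgeR adjusted p = 0.00382). At RiboMinus MII Kif20a and Cep55 were 1.66 and 0.98 higher in cKO (edgeR adjusted p = 0.000949 and 0.0175). From GV to MII 8 of the 13 rose and 3 fell in polyA controls, and 9 rose and 1 fell in polyA cKO oocytes, among them Cep55 (1.45 and 1.54), a protein of the cytokinetic bridge. Of all genes 30.1% rose and 33.3% fell in polyA controls, and 33.1% and 41.7% in polyA cKO oocytes. By library totals 5 of the list rose and 3 fell in controls, and 6 and 4 in cKO oocytes. Over all genes library totals gave 2507 higher and 5435 lower of 12561 in controls, and 2812 and 7251 of 13217 in cKO oocytes. In RiboMinus controls 2 rose and 8 fell (15.0% and 15.8% of all genes). Without V889 the polyA control split was 5 and 2 (all genes: 3037 and 3287 of 13693).

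The RiboMinus GV calls of these partner genes depended on the oocytes in the fit. Without V1126_3 all 6 named above were called: Mad2l1bp (1.05), Trip13 (0.76), Sgo2a (-0.65), Haspin (-0.81), Racgap1 (-1.10) and Kif23 (-0.81). The counts there were 5 higher and 6 lower for the checkpoint partners, 1 and 4 for the passenger list and 2 and 7 for the spindle list (all genes: 3882 and 3631 of 15596). Without cKO female V1131 edgeR called 0 of all 3 lists (2, 1 and 2 genes with an unadjusted p under 0.05) and 103 of 16326 genes tested. Haspin was then at -0.42 (adjusted p = 0.294) and Kif23 at -0.19 (adjusted p = 0.523). Without V1132 or V1133 Racgap1 was the only one of the 6 still called, and without V1126_2 Trip13 alone was lost (adjusted p = 0.0528). Without V1126 the checkpoint partners gave 7 higher and 6 lower (all genes: 4276 and 4310 of 16292). At polyA GV, leaving out V889 left 1 higher and 1 lower among the checkpoint partners, 0 and 2 in the passenger list and 0 and 4 in the spindle list, and leaving out V856 left 2 and 2 checkpoint partners. Calls over all genes went there from 5908 of 14606 to 2835 of 16009 without V889 and 4759 of 15522 without V856. At polyA MII, leaving out V897 left 1 and 2 in the passenger list and 0 and 2 in the spindle list, and 2325 of 12601 genes called in place of 4727 of 12564. At RiboMinus MII, leaving out any of the 3 control eggs left 3 and 0 checkpoint partners and 0 and 1 of the passenger list, the latter also without V1167_2, and 2 or 3 genes called in the spindle list. Calls over all genes went there from 3949 of 16675 to 2328, 2487 and 2439 without V1145_2, V1145_3 and V1145_4, and to 3210 without V1167_2.

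Over the 10 group means, with each library type centred on its own mean, the genes most like a member among 8446 were named for 3 members: Prc1, called in 9 of the 11 genotype and stage contrasts, and Mad2l1 and Bub1b, which were called in 7, as was Ttk, and had larger mean changes than Ttk. Prc1 was closest to Zfp942 and Zfp655 (Pearson r 0.995 and 0.994), Mad2l1 to Slbp and Taf6 (0.992 and 0.991), and Bub1b to Pggt1b and Mos (0.99 and 0.983). Among the members themselves Mad2l1 and Aurkc were alike (0.979). These values describe 10 points that share libraries within a group, and the search over so many genes picks high values.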

How the data were processed

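For each library the authors deposited 1 file of raw, unnormalized counts by Ensembl mouse gene ID. Per the submitters' processing notes, the tools named are cutadapt 2.5, FastQC 0.11.8, STAR 2.7.2a, SAMtools 1.9, HTSeq 0.9.1, R 3.5.1 and DESeq2 1.24.0, with the build mm10. The annotation release and strand setting are not given in the sources used here. Reads outside genes made up 5.855% to 14.17% of polyA and 8.338% to 12.4% of RiboMinus totals and were left out. The rRNA files of the series were not used here.

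From the counts, 16 contrasts (5 of genotype, 6 of stage, 3 of genotype by stage, 2 of library type by stage) were fitted with edgeR 4.0.16 in R 4.3.3. Genes were filtered with filterByExpr and scaled with TMM factors (within each library type for the library contrasts). Quasi-likelihood tests were two-sided, used only the groups compared and no covariates, and were adjusted over all genes tested. CPM values are TMM-scaled. Samples were grouped by their titles, with the oocyte as replicate. Oocytes of 1 female are not independent, so p-values from oocytes measure the spread between these oocytes, and fits on counts summed per female are given beside them where both arms had at least 2 females. The scripts were tested on simulated data.

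The members and lists were chosen with earlier results of these data known. Named genes are all 10 members, Exosc10, and from each list up to 3 called genes with the largest change and an average log2 CPM of at least 3 per genotype contrast and polyA GV to MII contrast. Pattern likeness used log2(CPM + 1) group means. Alternatives were DESeq2 1.42.0, its size factors in edgeR, library totals, no filter, a mean of at least 50 counts, female sums, voom in limma 3.58.1 with females as random blocks, all groups in 1 fit, and leaving out each female (each oocyte in groups of 5 or fewer). Leaving out V1126_2 or V1126_3, which was chosen after seeing the data, was added. Tables and figures used Python 3.11.15, numpy 2.4.6, pandas 2.3.3, scipy 1.17.1 and matplotlib 3.10.9. No 2 libraries of a group agreed within sampling noise.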

Additional observations from a re-analysis of the deposited data

Results flagged for a closer look

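In RiboMinus GV cKO oocytes the Aurkc level of oocyte V1126_3, at 65.6 CPM, was far from the other 6, which held 17.7 to 37.1 CPM. It was the 1 such value among 60 combinations of member and group that were looked at, and chance gives about 1 in 20.

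The GV to MII change differed between genotypes by a test of the difference itself (cKO minus control, log2, edgeR adjusted p) for 3 members in polyA libraries: Bub3 by 0.65 (0.0162), Aurkb by 0.84 (0.0401) and Prc1 by 0.47 (0.0102). In RiboMinus libraries it differed for Bub1b by 0.93 (0.0141) and Mad2l1 by 1.01 (0.0195). With the random female block voom called none of these 5 (adjusted p = 0.0885, 0.253, 0.152, 0.0549 and 0.138 in that order).

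The GV to MII change differed between library types (polyA minus RiboMinus) in controls for Ttk by -0.44 (edgeR adjusted p = 0.0104), Bub1 by -0.54 (0.0477), Bub3 by -0.94 (0.00125), Bub1b by 2.61 (1.23e-13), Mad2l1 by 3.02 (4.31e-13), Aurkc by 2.81 (9.04e-10), Tpx2 by 1.44 (4.67e-09) and Prc1 by 1.88 (8.12e-12). In cKO oocytes it differed for Bub1b by 1.87 (1.2e-09), Mad2l1 by 2.0 (3.32e-10), Aurkc by 2.32 (1.01e-07), Tpx2 by 1.01 (0.000867) and Prc1 by 2.54 (6.97e-11). Different females and kits gave the 2 library types, so the type and the female cannot be told apart.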

How the results depend on the processing

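The 74 member values called in the 16 contrasts gave 1109 values under alternatives. Of these 163 lost the call, 0 turned direction and the others kept the call. Most losses came from leaving out 1 female (74 of 387), 1 oocyte (26 of 151), female sums (27 of 53) and the random female block (16 of 74). The number of members called moved by over 1.5 times as follows; the cause was not tested. At polyA GV, 7 became 0 with female sums, 4 with the random female block (1379 of 14606 genes) and 3 to 8 when 1 female was left out. It was 3 without V889, where calls over all genes went from 5908 of 14606 to 2835 of 16009. At polyA MII, 6 became 3 with female sums. At RiboMinus GV, 6 became 0 with female sums, 3 with the block (2725 of 15347 genes) and 0 to 8 with omissions. The omissions gave 0 without V1131, 1 without V1132 or V1133, 7 without V1126 or V1126_3 and 8 without oocyte V1126_2. Calls over all genes moved with them, from 5774 of 15347 genes to 103 of 16326 without V1131, 2657 without V1132, 1407 without V1133, 8586 without V1126, 6739 without V1126_2 and 7513 without V1126_3. At RiboMinus MII, 4 became 2 to 6 when 1 female or oocyte was left out, and calls over all genes went from 3949 of 16675 to between 2328 and 3835. For GV3h against GV in cKO, 0 became 0 to 2. For RiboMinus MII against GV in cKO, 3 became 0 with female sums, 0 with the block (802 of 17234 genes) and 0 to 3 with omissions. Calls over all genes under these omissions ran from 203 to 4150, against 2770 of 17234 with all oocytes. The genotype difference called 0 to 1 for GV3h with omissions. For polyA MII it called 1 in place of 3 with DESeq2, 1 with DESeq2 size factors, 0 with female sums, 0 with the block and 0 to 7 with omissions. For RiboMinus MII it called 0 in place of 2 with the block and 0 to 4 with omissions. Omissions that leave 1 sample in an arm assume it varies like the other groups. No paired analysis was possible because each female gave oocytes of 1 genotype and 1 stage, so shared numbers pair no samples across groups. Aurkb, with as few as 63 counts, is the member that depth limits most.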
